A study of Mus musculus with 2 samples.

Results

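The genes described here move ions and water across the cell membrane and set cell volume. They are 8 genes, namely Slc12a2, Slc12a4, Slc4a2, Slc4a7, Atp1b1, Atp1b3, Aqp1 and Lrrc8a, chosen by name. Each was followed through every probe set, a group of array probes for 1 transcript, that the platform annotation assigned to that gene alone. This gave 13 probe sets for 7 of the 8 genes, out of 18193 genes named on the array. Slc4a7, which encodes a sodium-bicarbonate cotransporter, was named by no such probe set and has no value here.

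The study hybridised 2 Affymetrix GeneChip whole-genome mouse arrays with RNA from growth cartilage of wild-type C57BL/6J mouse embryos at E17.5, shortly before birth. For the round array, cartilage plate portions enriched in round chondrocytes were used. For the other, called the C/H array below, they were enriched in columnar and hypertrophic chondrocytes. Total RNA from 3 portions was mixed per array, so each group is 1 pooled sample of an enriched zone, no allele or treatment distinguished the groups, and no spread between animals was measured. Columnar and hypertrophic cells were not separated from each other.

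A chondrocyte passing from the round to the columnar and then the hypertrophic state enlarges greatly, and this enlargement is a main source of bone lengthening. Cell volume follows the osmotic balance. The sodium pump (Na,K-ATPase) keeps cytoplasmic sodium low, NKCC1 carries sodium, potassium and chloride inwards, KCC transporters carry potassium and chloride outwards, and anion exchangers paired with sodium transporters adjust chloride, bicarbonate and pH. Aquaporins let water follow, and the LRRC8 anion channel opens in swollen cells to let chloride and organic osmolytes leave.

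Values are MAS5 signals, a linear measure of brightness scaled to the same trimmed mean on both arrays. Signals of chemosensory receptor genes, which cartilage should not use, set a floor of 100.5, and a signal under it was raised to it before any difference was taken. Each difference is a log2 value, positive where the C/H array was brighter. Where 1 of the signals lay under the floor, the difference is a bound and is written "at least". There was 1 array per group, so there was no test and no replicate error. As a technical guide only, log2 differences of several probe sets of the same gene had an SD of 0.37 over 4825 genes. Total RNA of a tissue does not tell fewer cells of a type from less RNA per cell.

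The arrays went with their labels. All 7 measured hypertrophic markers were at least 2-fold higher on the C/H array, and their summed signal went from 2993 to 42274. All 8 general chondrocyte markers were above the floor and within 2-fold. Markers of fibrous tissue and tendon went the other way, with 5 of 7 measured genes at least 2-fold lower on the C/H array and a summed signal of 82611 against 26348. Of the markers with a probe set of their own, 2 of 5 osteoblast, 4 of 10 skeletal muscle and 4 of 8 macrophage genes passed the floor on at least 1 of the arrays. Of these, Tnnt3 of muscle (63.4 and 429) was at least 4.26-fold higher and Lyz2 of macrophages (130 and 293) 2.25-fold higher on the C/H array, and Des of muscle (258 and 29.1) at least 2.56-fold lower. The other measured macrophage genes, Csf1r (190 and 129), Adgre1 (166 and 118) and Cd68 (130 and 70.5), were lower on the C/H array. The median of the macrophage list was -0.43. The part of these cell types in the members' differences was not tested. Probe sets above the floor made up 55.0% of the round array and 50.8% of the other.

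The sodium pump subunit gene Atp1b3 and the water channel gene Aqp1 were the members that differed by at least 2-fold, in opposite directions. Atp1b3 was 2.60-fold higher on the C/H array, and Aqp1 was at least 3.43-fold lower. Thus 1 of 7 measured members was at least 2-fold higher, where 4.31% of the 11703 measured genes were, and 1 was at least 2-fold lower, where 6.37% of all were. With the arrays set to equal medians these shares of all genes were 8.33% and 3.66%. The other 5 members were within 2-fold. The median difference of the 7 members was -0.16, beside -0.05 over all measured genes. With equal medians both turned positive, to 0.12 and 0.22.

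**Figure D1:**
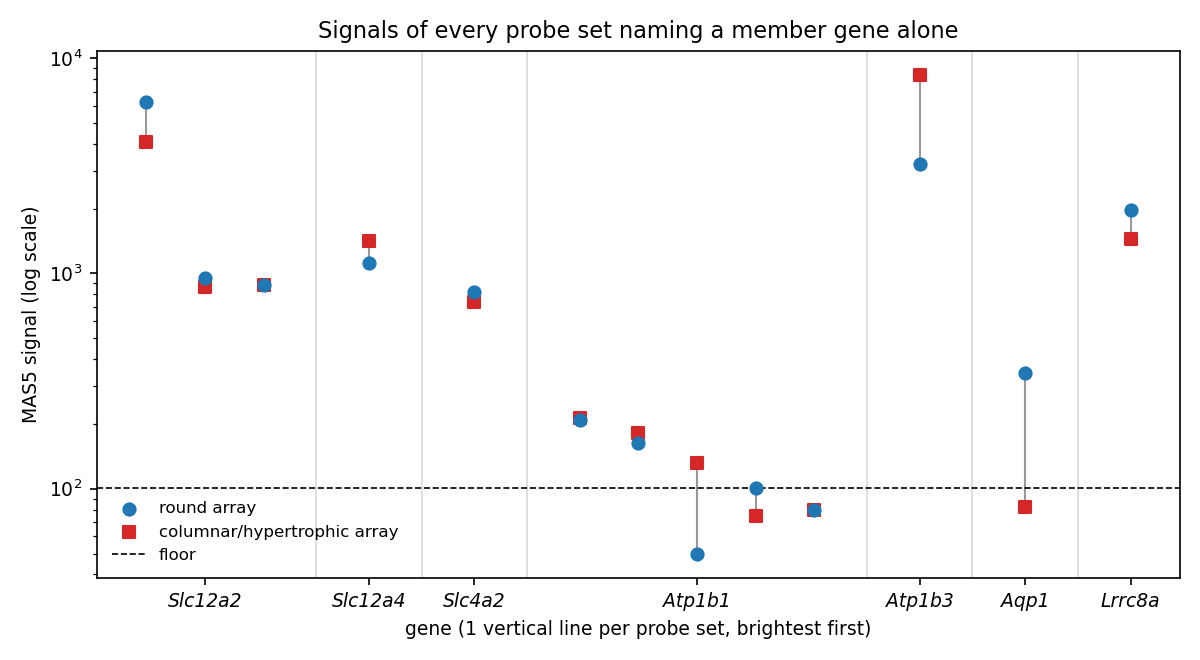
MAS5 signal (vertical, log scale) of each of the 13 probe sets that name a member gene alone, with circles for the round array, squares for the C/H array and the floor of 100.5 as a dashed line. Atp1b3 goes from 3216 to 8378 and Aqp1 from 344 to 81.9, under the floor, while the symbols of Slc4a2 and of the brighter Atp1b1 probe sets nearly coincide.

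The sequences before the start sites of these 2 genes are shown because they were the members past 2-fold. They are the 250 bases before the most upstream start listed by RefSeq (GRCm38.p6), 5′ to 3′ on the gene's strand, and capitals mark the GC box letters GGGCGG in either orientation.
Atp1b3 (chr9:96364432-96364681, minus strand): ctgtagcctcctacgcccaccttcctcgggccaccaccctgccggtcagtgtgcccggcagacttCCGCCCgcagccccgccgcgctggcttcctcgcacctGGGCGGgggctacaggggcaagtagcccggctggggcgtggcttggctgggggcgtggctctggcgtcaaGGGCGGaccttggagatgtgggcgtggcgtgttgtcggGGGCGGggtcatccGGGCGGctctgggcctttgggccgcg
Aqp1 (chr6:55336049-55336298, plus strand): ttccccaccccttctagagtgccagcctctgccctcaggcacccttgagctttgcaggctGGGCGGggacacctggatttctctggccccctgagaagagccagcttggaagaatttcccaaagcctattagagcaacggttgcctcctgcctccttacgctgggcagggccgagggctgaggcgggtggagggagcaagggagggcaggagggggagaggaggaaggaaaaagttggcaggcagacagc
The Atp1b3 window held 5 such matches and the Aqp1 window 1, and 32.7% of 32851 windows of the same length before all listed starts held at least 1. Bases G and C made up 73.6% of the Atp1b3 window and 62.0% of the Aqp1 window, beside a median of 52.4%. The TATA box letters TATAAA, the RUNX core TGTGGT and the NFAT5 core TGGAAA, each searched on both strands, were in neither window, and in 12.4%, 14.0% and 18.6% of all windows. RefSeq lists a second Atp1b3 start, not shown here, and the arrays do not separate transcripts by their starts.

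Atp1b1 and Atp1b3 encode β subunits of the sodium pump, which the pump needs in order to fold and reach the cell surface. Atp1b3 had a signal of 3216 on the round array and 8378 on the C/H array, a log2 difference of 1.38. It ranked 249th from the highest among 11703 measured genes. It was measured by 1 probe set, so no second probe set checks it, and the technical SD among the brightest of 3 equal groups of genes, to which its signal belongs, was 0.32. The hypertrophic markers moved with it, and whether it came from hypertrophic or columnar cells was not tested.

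Atp1b1 was close to equal on the 2 arrays as deposited. Its brightest probe set had signals of 208 and 212, a log2 difference of 0.03. The next gave 163 and 181 (0.15). Of its other 3 probe sets, 1 was above the floor on the C/H array alone (49.8 and 131), 1 barely passed it on the round array alone (101 and 74.9), and 1 was under it on both (79.7 and 79.8). As deposited, the 2 brighter probe sets thus differed by less than the technical SD, at signals not far above the floor. The dimmer bound on the C/H side was at least 0.39. With equal medians the 2 brighter differences were 0.31 and 0.43, the latter beyond the technical SD. With the other scalings they were 0.24 to 0.25 and 0.35 to 0.40, so how close to equal the gene was depended on the scaling.

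Slc12a2 encodes NKCC1, the inward sodium, potassium and chloride cotransporter that drives volume gain. Its brightest probe set had signals of 6238 and 4080, a log2 difference of -0.61. The other probe sets, annotated to the same transcript, had signals of 957 and 862 (-0.15) and of 884 and 879 (-0.01). With equal medians the 3 differences were -0.33, 0.13 and 0.27, and the last was also just above 0 with the other scalings (0.01 to 0.02), so neither the size nor a shared direction was settled. Slc12a4 encodes KCC1, which carries potassium and chloride outwards. It had signals of 1120 and 1412 by its single probe set, a log2 difference of 0.33, about the size of the technical SD (0.32 among the brightest genes, 0.37 over all). With equal medians it was 0.61.

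Slc4a2 encodes the anion exchanger AE2, which trades chloride for bicarbonate. Its signals of 824 and 739 gave a log2 difference of -0.16, within the technical SD, and 0.12 with the arrays set to equal medians. AE2 is also abundant in osteoclasts. Of the 8 osteoclast markers, Ctsk (803 and 522) and Oscar passed the floor somewhere, and Acp5, Calcr, Dcstamp, Ocstamp, Mmp9 and Atp6v0d2 were under it on both.

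Aqp1 encodes the water channel aquaporin-1. It had signals of 344 on the round array and 81.9 on the C/H array, the latter under the floor, a log2 difference of at most -1.78. It ranked 181st from the lowest among 11703 measured genes. The single probe set leaves no check within the gene, and among the dimmest of 3 equal groups of genes the technical SD was 0.41. Aqp1 is also a gene of red blood cells and of vessel walls. All 7 red blood cell markers with a probe set of their own, among them Slc4a1 and Alas2, were under the floor on both arrays. Of 4 probe sets naming α-globin genes or β-globin genes together, 3 were above it on both and higher on the C/H array, at 961 and 2151 for the brightest. Of 12 endothelial markers, Esam (152 and 65.4) and Egfl7 (206 and 247, and at least 1.81-fold and 1.75-fold higher by 2 dimmer probe sets) passed the floor somewhere, while Pecam1, Cdh5, Kdr, Tie1, Tek and Emcn were under it on both. Endothelial signals summed to 782 (round) and 661 (C/H), but these sums include the raw signals of the 10 genes under the floor on both arrays. The fibrous tissue markers were lower on the C/H array. The part of red blood cells, vessel walls or fibrous tissue in the Aqp1 difference was not tested.

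Lrrc8a encodes the obligatory subunit of the volume-regulated anion channel. It had signals of 1980 and 1448, a log2 difference of -0.45, a little beyond the technical SD for 1 probe set and well under 2-fold. With equal medians it was -0.17, within the technical SD, but -0.48 with quantile normalization and -0.49 with lowess centring. A probe set that names Lrrc8a together with another gene, and was not used, gave -1.08 (see the last section).

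**Figure D2:**
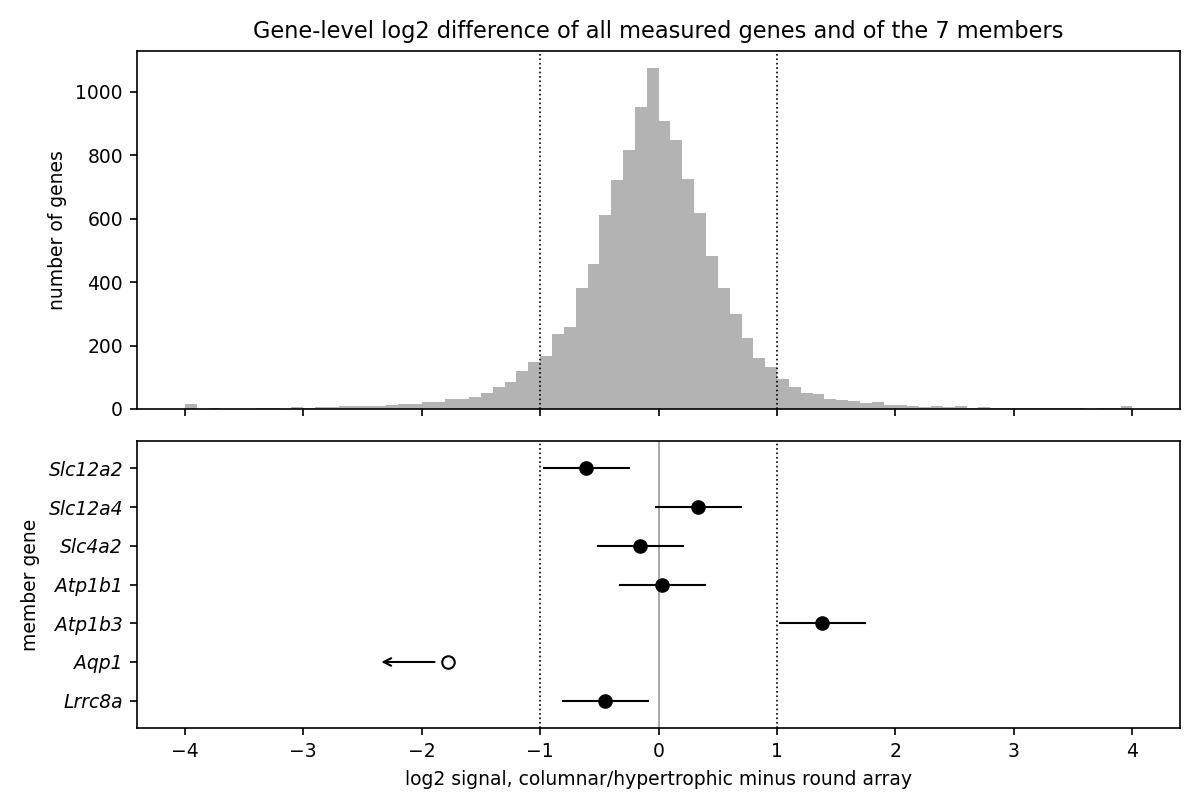
Upper panel, number of measured genes (vertical) by gene-level log2 difference (horizontal), with differences beyond 4 either way counted in the outermost bars; lower panel, the same difference for the 7 members, with bars of 1 technical SD (0.37, between probe sets of a gene, not between replicates) and an open point with an arrow for the Aqp1 bound. Dotted lines mark 2-fold, and Atp1b3 (1.38) and Aqp1 (-1.78) lie outside them.

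The surrounding transport machinery was read through 10 lists of 112 genes. These lists include the members, so Atp1b3 is counted again below among the genes higher and Aqp1 among those lower. Of 58 genes measured, 8 were at least 2-fold higher on the C/H array and 5 lower, with a median of -0.06 (0.28 with equal medians and 0.02 with quantile normalization). Over all 11703 measured genes, 4.31% were at least 2-fold higher and 6.37% lower, and these shares also stand beside the counts for each list below. The lists were chosen with earlier results of these data known, so the counts are described only. The 4 measured SLC12 genes were all within 2-fold, with a median of -0.28 that became 0.005 with equal medians. Slc12a9, an orphan member of that family, was farthest from 0 at -0.81 (395 and 226).

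Of 9 measured genes of the kinases that control these cotransporters, 2 were at least 2-fold higher and 0 lower. WNK kinases activate SPAK and OSR1, which switch NKCC1 on and KCC transporters off by phosphorylation. Stk39, encoding SPAK, measured 606 and 1494 by the brightest of its probe sets, 2.46-fold higher on the C/H array. Its next probe set gave 4.28-fold, and a dim one gave a bound of at least 2.78-fold. Cab39l, encoding the scaffold MO25β that activates SPAK and OSR1, had signals of 723 and 1934, 2.68-fold higher, but 1.63-fold (867 and 1412) by the only other probe set that passed the floor. The other 7 measured genes of this list, among them Oxsr1 (464 and 510), were within 2-fold. The list median was 0.14, but 0.42 with equal medians and 0.22 with quantile normalization. Wnk1 measured 7287 and 6558 by its brightest probe set, but its others were 1.86-fold (1345 and 2497) and 1.37-fold (186 and 255) higher on the C/H array.

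Among the other sodium pump subunits, Fxyd2, encoding the regulatory γ subunit, gave a bound in each of its 3 probe sets that passed the floor. The brightest went from 33.1 to 1009, at least 10.04-fold higher on the C/H array, and the others were at least 6.58-fold and at least 5.04-fold higher. Fxyd3, another regulator of the pump, was 1.92-fold higher (293 and 562) and passed 2-fold with each of the other scalings. The 5 measured pump genes besides Atp1b1, Atp1b3, Fxyd2 and Fxyd3 gave values between -0.51 and -0.06. The median of the 9 measured pump genes was -0.06, but 0.14 with equal medians and 0.02 with quantile normalization.

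Bicarbonate handling was covered by SLC4 transporters and carbonic anhydrases. All 5 measured SLC4 genes were within 2-fold (median -0.12, but 0.16, 0.02 and 0.03 with equal medians, quantile normalization and lowess centring), with Slc4a11 lowest at -0.64. Of 8 measured genes of the carbonic anhydrase family, whose enzymes interconvert carbon dioxide and bicarbonate, 2 were at least 2-fold higher and 2 lower. Car12, a membrane enzyme with its active site outside the cell, had signals of 620 and 3255, 5.25-fold higher on the C/H array and 2.46-fold by its second probe set. Car8, a family member without catalytic activity that binds the IP3 receptor, was 5.85-fold higher (188 and 1097), but a dim second probe set gave a bound of at least 1.34-fold. Car9, a membrane enzyme induced by low oxygen, was 5.03-fold lower (4748 and 943), and Car11, another member without catalytic activity, 3.94-fold lower (447 and 113).

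In the sodium-proton exchanger list, 1 of 6 measured genes passed 2-fold. Slc9a3r1, encoding the scaffold NHERF1, was at least 3.47-fold lower on the C/H array (349 and 98.2), and its other probe sets were at least 2.63-fold and at least 1.36-fold lower. Of 12 aquaporin genes, 9 were under the floor on both arrays, and besides Aqp1 only Aqp6 (145 and 85.4) and Aqp11 (159 and 202) passed it. Aqp6 did so on the round array alone. Aqp11 did so only by a probe set that can match several transcripts or genes, and its others were under the floor on both arrays. For the channel partners of Lrrc8a the probe sets differed in sign. Lrrc8c measured 1068 and 1157 (0.11) by the brighter and 624 and 529 (-0.24) by the other, and Lrrc8d 370 and 412 (0.15) by the brighter and 165 and 115 (-0.52) by the other. The median of the 3 measured LRRC8 genes was 0.11, but -0.18 with probe sets averaged and -0.45 without probe sets that can match several transcripts or genes. Of 8 epithelial and acid-sensing sodium channel genes, Scnn1a (145 and 63.0) and Asic4 (117 and 90.4) passed the floor, on the round array alone.

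Genes of the response to tonicity and of osmolyte transport had a median of 0.27, and among 9 measured, 2 were higher and 1 lower by 2-fold or more. That median was 0.55 with equal medians, and 0.11 with quantile normalization and with lowess centring. Sgk1, a kinase gene that regulates ion transporters, was 2.94-fold higher on the C/H array (217 and 639). Clcn3, encoding a chloride-proton exchanger of endosomes, was 2.25-fold higher (839 and 1890), its next 3 probe sets gave 1.87-fold to 2.20-fold, and the fifth gave -0.17 on the log2 scale. Ano6, encoding a lipid scramblase and ion channel, was at least 3.33-fold lower (334 and 10.3) and at least 2.98-fold lower by its second probe set. Nfat5, the transcription factor gene of the tonicity response, measured 3963 and 3499 by the brightest of its probe sets. Of the 4 above the floor on both arrays, 2 were lower (-0.18 and -0.31) and 2 higher (0.31 and 0.27) on the C/H array. Its target Slc5a3, the inositol transporter gene, measured 3805 and 3768, but 447 and 732 (1.64-fold higher) by its second probe set. The taurine transporter gene Slc6a6 (571 and 1068) was 1.87-fold higher, its next probe set (313 and 744) gave 2.38-fold, and the gene passed 2-fold with equal medians (1.18 on the log2 scale) and with probe sets averaged (1.08). The swelling-sensitive cation channel gene Trpv4 (2769 and 4409) was 1.59-fold higher, short of 2-fold.

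**Figure D3:**
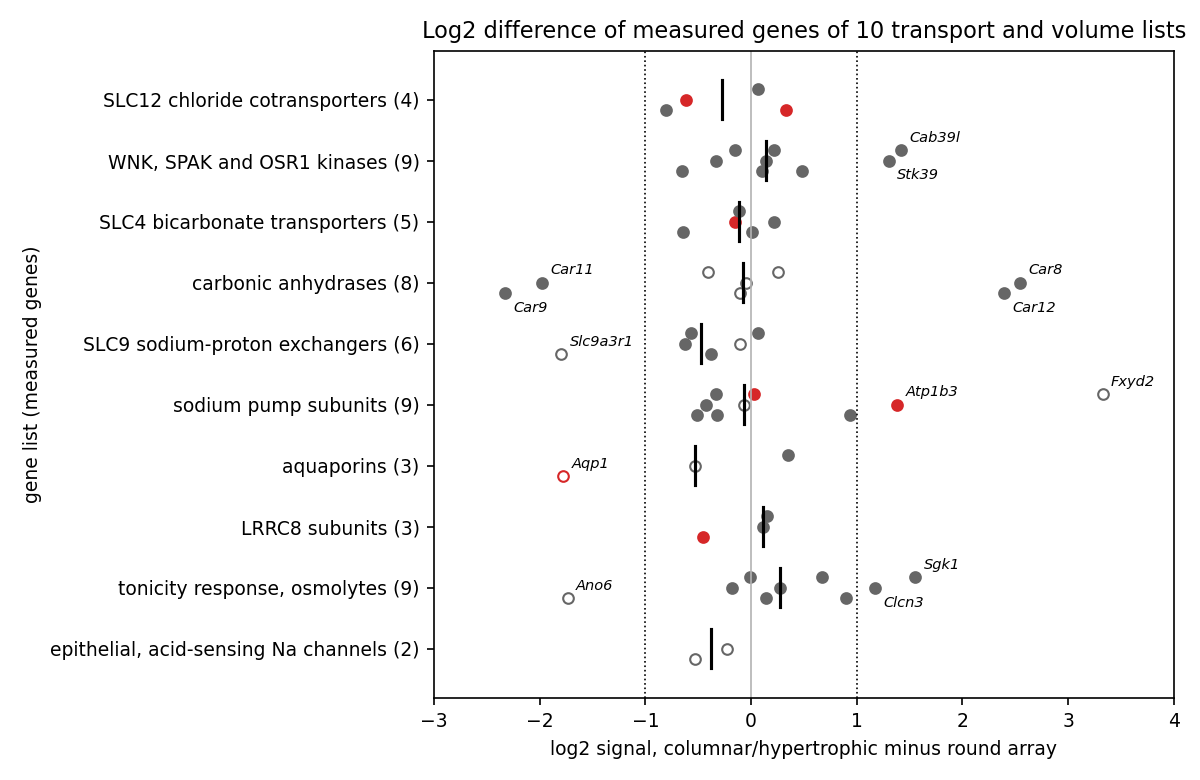
Log2 difference (horizontal) of each measured gene in 10 lists of ion, water and volume genes (vertical, number measured in brackets), with members in red, bounds as open points, list medians as black bars and dotted lines at 2-fold. Most points lie within 2-fold, with Fxyd2, Car8, Car12, Sgk1, Cab39l, Atp1b3, Stk39 and Clcn3 to the right and Car9, Car11, Slc9a3r1, Aqp1 and Ano6 to the left.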

How the data were processed

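RNA of 2 groups was compared, with 1 array each. The authors deposited linear signal intensities for 45101 probe sets, made with MAS5 according to the submitters' processing notes, which give no version. This algorithm corrects background, summarises probes and scales arrays, and with 2% trimmed at either end both means were 500.0. The study's methods name RMA, whose log values these are not. Weak MAS5 signals are noisy, and the scaling assumes comparable total signal.

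A single gene symbol was given for 34958 probe sets. Another 932 named several genes and were used for none, and 9211 were unnamed here. Entrez identifiers of 34754 matched RefSeq (GRCm38.p6), used for names. The floor was the 95th percentile of 87 chemosensory receptor probe sets over both arrays. Each gene was represented by its brightest probe set (mean log2 signal after the floor), and 11703 genes had it above the floor on at least 1 array. The analysis used Python 3.11.15 with pandas 2.3.3 and statsmodels 0.14.6, and was tested on simulated data. With 1 array per group, no test was made, genes were counted at 2-fold, and precision is limited by the number of arrays.

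Members and lists were chosen with earlier results of these data known. The text names all members, up to 3 genes past 2-fold in each list or else the farthest from 0, and markers. Named after their values were seen were Car11, Fxyd3, Wnk1, Oxsr1, Lrrc8c, Lrrc8d, Aqp6, Aqp11, Asic4, Nfat5, Slc5a3, Slc6a6 and Trpv4. Alternatives were 3 other scalings between the arrays, floors at the 90th and 99th percentiles and none, averaging over probe sets within a gene, probe sets without the x, s or a suffix, which can match several transcripts or genes, and a count at 1.5-fold.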

Additional observations from a re-analysis of the deposited data

How the results depend on the processing

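Atp1b3 stayed between 1.24 and 1.66 and Aqp1 between -2.07 and -1.24 over 9 settings, both past 2-fold in each. Most of these settings could not move them. Each gene has 1 probe set without the x, s or a suffix, so averaging or leaving out probe sets changes nothing. Atp1b3 lay far above every floor, so only the 3 other scalings could move it, and only these and the floor could move Aqp1. The value -1.24 for Aqp1 came with the floor at the 99th percentile, which shortens a bound by construction. At 1.5-fold, 2 members counted as lower in place of 1, the addition being Slc12a2, whose difference ranged from -0.75 to -0.26. Equal medians moved the median of all measured genes from -0.05 to 0.22. This setting multiplies each array by a constant, so it moves all genes above the floor alike by construction. Slc4a2 lay above 0 in that setting and Atp1b1 under 0 (-0.01) without probe sets that can match several transcripts or genes, in 1 of 9 settings each. Over all genes, equal medians gave 8.33% higher, and no floor gave 10.01% lower (6.37% with it). Among the 10 lists, in alternatives chosen after seeing the data, 8 genes were lower in place of 5 with no floor. When the possibly shared probe sets were left out, 4 genes were at least 2-fold higher in place of 8. The remaining probe sets then gave smaller differences for Cab39l (0.70), Car8 (0.43), Clcn3 (0.91) and Slc9a3r1 (-0.44), all short of 2-fold. Fxyd2 was then under the floor on both arrays. With probe sets averaged, Clcn3 was 0.82. No paired analysis was possible because each group has 1 array. Signals near the floor, as for Atp1b1 and Aqp1, limit what could be seen.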

Other observations

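A probe set that names Lrrc8a together with Phyhd1, and was therefore not used for either gene, went from 622 (round array) to 294 (C/H array, enriched in columnar and hypertrophic cells), a log2 difference of -1.08 beside -0.45 for the Lrrc8a probe set. The 3 probe sets that name Chp1, encoding a partner protein of sodium-proton exchangers, together with a predicted gene gave -0.36, -0.11 and -0.02, from signals of 860 and 672, 395 and 366, and 685 and 676. The probe set shared by 4 β-globin genes had signals of 467 and 856, a log2 difference of 0.87.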
